A study of Mus musculus with 8 samples.

Results

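The low-density lipoprotein (LDL) receptor family was followed in mouse cells isolated as microvascular endothelial cells, with and without one of its largest members, LRP1. Fibroblast markers summed above endothelial markers in these libraries, as given below. The family was defined by name, with no limit on measured values, as Lrp1, its relatives Vldlr, Lrp8, Lrp4, Lrp5, Lrp6 and Lrp10, the related sorting receptor Sorl1, and Lrpap1, which encodes the chaperone that escorts these receptors through the secretory pathway. All 9 were present among the 22520 genes measured. The question of the comparison was whether the relatives or the chaperone change when Lrp1 is lost.

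Expression was measured by RNA sequencing in 4 LRP1 knockout (LRP1 KO) and 4 wild-type (WT) libraries from C57BL/6 mice at postnatal day 14. According to the study's methods, LRP1 KO mice were LRP1 f/f; Cdh5-CreER+/- and WT mice were littermates that were LRP1 f/f; Cdh5-CreER-/-, so that both groups carried floxed Lrp1 alleles and only the LRP1 KO mice carried Cre. Cdh5 encodes VE-cadherin, and its promoter drives the tamoxifen-inducible CreER in endothelial cells, so the deletion is directed at these cells and not at other types that a sample may hold. The tamoxifen schedule of these mice is not given in the sources used here. Cells were selected with beads carrying an antibody against PECAM-1, a surface protein of endothelial cells that some leukocytes and platelets also carry. The labels describe each library as a mixture from heart, liver and lung, whereas the study's text describes cells of the liver separately from those of heart and lung. The labels were followed, and from which of these organs a given level comes is not settled. The labels also do not say whether a library is 1 animal or a pool. The p-values below therefore measure the spread between these libraries. Values are FPKM (sequenced fragments of a gene, corrected for its transcript length and for the library's mapped total), quantile normalized across the 8 libraries. FPKM corrects for gene length, so levels of different genes can be set side by side. The depth of each library is unknown and no counting error could be given.

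Receptors of this family bind ligands outside the cell through clusters of cysteine-rich ligand-binding repeats, take them up through clathrin-coated pits and release them in acidic endosomes before they return to the surface. LRP1 is a scavenger and signalling receptor with many known ligands, among them lipoprotein remnants, protease-inhibitor complexes and matrix proteins. VLDLR and LRP8 (also called apoE receptor 2) bind apoE-containing lipoproteins and reelin, LRP5 and LRP6 are co-receptors of Frizzled in Wnt signalling, and LRP4 acts in agrin and Wnt signalling. SORL1 sorts cargo between the Golgi and endosomes, and LRP10 is a small relative that also moves between these compartments. LRPAP1 (receptor-associated protein, RAP) binds newly made receptors in the endoplasmic reticulum and keeps ligands off them until they have left it.

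The cytoplasmic tails of several of these receptors hold a short signal, NPxY, that adaptor proteins read for uptake and signalling. The coding sequence of each gene's longest coding transcript (GENCODE M21, GRCm38) was searched in frame, on the coding strand, for codons of this motif in its last 200 codons. The motif was found in 4 of the 9 genes, with 2 copies in Lrp1 and 1 each in Vldlr, Lrp8 and Lrp4, against 301 of 21526 mouse protein-coding genes searched the same way (1.40%). These 30-base stretches are shown because they set out which of the relatives share the tail signal of the deleted receptor. The capitals mark the codons of the motif.
Lrp1, codon 4471: gaaattggaAACCCTACCTACaagatgtat
Lrp1, codon 4505: aacttcaccAACCCAGTGTATgccacgctc
Vldlr, codon 834: aactttgacAATCCTGTGTACttgaagacc
Lrp8, codon 855: aatttcgacAACCCAGTGTACaggaaaacg
Lrp4, codon 1766: acctatagcAACCCCTCCTACcgaacttcc
The Lrp1 stretches lie on the minus strand at chr10:127539299-127539328 in exon 88 of 89 and at chr10:127539055-127539084 in exon 89. Those of Vldlr (chr19:27247931-27247960, exon 18 of 19), Lrp8 (chr4:107869052-107869081, exon 17 of 19) and Lrp4 (chr2:91508512-91508541, exon 37 of 38) lie on the plus strand. Lrp5, Lrp6, Lrp10, Sorl1 and Lrpap1 held no such codons in this window, which says only that these letters are not there.

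The genes are spread over 8 chromosomes (GRCm38), with only Lrp5 (chr19:3584828-3686564) and Vldlr (chr19:27216484-27254231) on the same one. Lrp1 spans chr10:127538161-127621148, Lrp10 chr14:54464137-54471497, Lrp4 chr2:91457511-91513779, Lrp6 chr6:134446476-134566965, Lrp8 chr4:107802261-107876840, Lrpap1 chr5:35091501-35105766 and Sorl1 chr9:41964720-42124297. Their coding sequences run from 360 codons in Lrpap1 and 713 in Lrp10 to 4545 in Lrp1. No 50-base stretch of one gene's transcript occurred in that of another member (0% for each), so the members shared no exact stretch of this length. Mapping with mismatches and genes outside the family were not examined. Antisense genes overlap Lrp1, Lrp8, Lrp10 and Sorl1 on the opposite strand. Of these genes, Lrp8os2 was measured, with means of 0.00611 (WT) and 0.0104 FPKM (LRP1 KO), and the use of strand in counting is not given in the sources used here.

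The libraries were checked against their label before the family was compared. Shares of marker genes called below can be read against all tested genes, of which 6.27% rose and 7.31% fell. Of 18 endothelial marker genes, 17 had a mean of at least 1 FPKM in both groups and were tested, and 2 rose. The estimates of all 17 lay above 0. Their median log2(FPKM + 1) difference, LRP1 KO minus WT, was 0.90, against -0.01 over all tested genes. Pecam1, the selection antigen, lay between 6.80 and 8.76 FPKM in WT and between 6.72 and 36.3 FPKM in LRP1 KO, and Cdh5 between 8.87 and 11.2 FPKM and between 8.56 and 47.3 FPKM. Fibroblast markers were far more abundant, with summed levels of 2957 to 4198 FPKM in WT and 2669 to 3898 FPKM in LRP1 KO, led by the collagen gene Col1a2 (726 to 973 and 576 to 955 FPKM). Of 12 fibroblast markers tested, 3 fell and 1 rose. Named here after their values were seen, Dpt was at 29.2% (16.8% without LRP1 KO library 4), Pdgfra at 53.0% and Thy1 at 69.0% of the WT mean, while Postn (periostin) was at 201%. The defining endothelial genes were thus present but low beside those of fibroblasts. The summed endothelial markers were 202 to 218 FPKM in WT and 734, 453, 535 and 209 FPKM in the knockouts, from library 1 to library 4, so LRP1 KO library 4 lay within the WT range and the others above it. Macrophage markers summed to 55.7 to 96.0 FPKM in WT and 223 to 543 FPKM in LRP1 KO, without overlap, and 7 of 9 tested rose. Their most abundant gene, Lyz2 (lysozyme), was at 23.99 to 54.3 FPKM in WT and 129 to 334 FPKM in LRP1 KO. Mural cell markers summed to 667 to 833 FPKM in WT and 1033 to 1617 FPKM in LRP1 KO, led by the smooth muscle actin gene Acta2 (309 to 402 and 469 to 844 FPKM), and 3 of 7 tested rose. Hepatocyte markers summed to 11.6 to 12.2 FPKM in WT and 12.3 to 28.0 FPKM in LRP1 KO, but nearly all of this was Ahsg (10.1 to 11.1 and 11.5 to 27.2 FPKM), and albumin (Alb) was at most 0.108 FPKM. Cardiomyocyte markers summed to 101 to 155 and 87.8 to 123 FPKM, mostly from Tnnt2 (95.5 to 152 and 81.6 to 109 FPKM), with Ryr2 at most 0.0611 FPKM and Myh6 at most 1.51 FPKM. Lung epithelium markers summed to 2.39 to 4.31 and 1.76 to 2.53 FPKM, with Scgb1a1 as the highest of them in each library (1.84 to 3.42 and 0.991 to 1.26 FPKM) and Sftpc at most 0.181 FPKM. Lymphocyte markers summed to at most 0.314 FPKM in any library, with Cd3e, Cd8a and Nkg7 at 0 in all of them. The Y-linked gene Ddx3y, chosen after its values were seen, was at 0.0555 FPKM in WT library 4 and 0.0243 FPKM in LRP1 KO library 2 and at 5.97 to 19.1 FPKM in the other 6, so 1 library of each group stood apart in it. In such mixed samples, fewer cells of a type and less RNA per cell cannot be told apart. Values of the family in LRP1 KO are given with and without library 4 where this changes a statement.

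**Figure D1:**
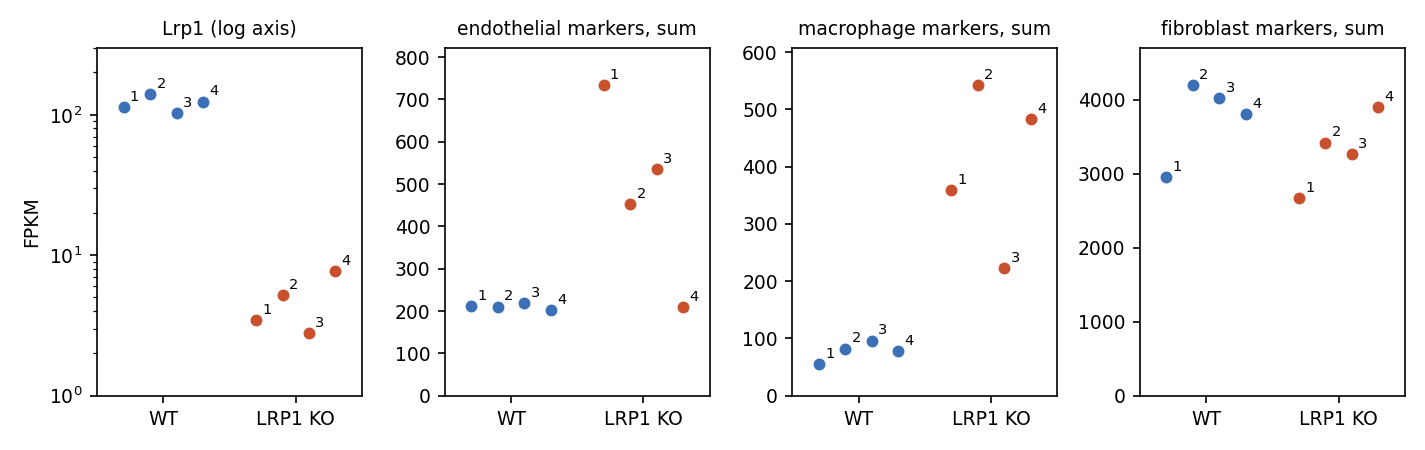
Lrp1 (left, log axis) and the summed levels of endothelial, macrophage and fibroblast marker genes (linear axes from 0) in FPKM, 1 point per library with its number, for 4 WT (blue) and 4 LRP1 KO (red) libraries. Lrp1 is low in all 4 LRP1 KO libraries, macrophage markers are higher in each of them, and LRP1 KO library 4 has WT-like endothelial markers (209 FPKM) beside the highest remaining Lrp1 level (7.72 FPKM).

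Loss of the targeted gene was clear in every LRP1 KO library. Lrp1 (ENSMUSG00000040249) was at 113, 140, 103 and 124 FPKM in WT libraries 1 to 4, against 3.45, 5.20, 2.79 and 7.72 FPKM after deletion, in the same numbering. The groups lay far apart, and LRP1 KO library 4 was the one nearest to WT. The mean fell from 120.1 ± 16.0 to 4.79 ± 2.20 FPKM (SD, n = 4), which left 3.99% of the WT mean, with 2.32% to 6.42% in single libraries. On the log2(FPKM + 1) scale, on which all differences below are given as LRP1 KO minus WT, the change was -4.45 (SE 0.23, 95% interval -4.97 to -3.93, limma adjusted p = 8.89e-05). It was the largest of the 11389 genes tested. The exact permutation test over the 8 libraries gave p = 0.0286, the smallest value that 4 against 4 allows. Without LRP1 KO library 4 the change was -4.68 (adjusted p = 9.18e-06). With the endothelial, fibroblast or macrophage marker score as a covariate it was -3.87, -4.07 or -5.68, called in each fit. In the same 4 LRP1 KO libraries fibroblast and macrophage markers summed to 2669 to 3898 and 223 to 543 FPKM. In which cell types Lrp1 was lost, and from which the remaining level came, cannot be told apart in these mixed samples. In WT, Lrp1 stood above 94.4% of the tested genes in level, and in LRP1 KO above 25.0%.

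Of the 9 genes, 7 passed the filter on low values, a level of at least 1 FPKM in at least 4 libraries, and 1 of those 7, Lrp1, was called at an adjusted p under 0.05. None of the other 6 tested genes was called, while 13.6% of all tested genes were (1547 of 11389). With a further limit of a 2-fold change, the family count was again 1, and 1.62% of all tested genes were called. At an unadjusted p under 0.05, Lrp1 and Lrp10 passed, against 33.7% of all tested genes. Groups did not overlap for 2 of the 7, Lrp1 and Lrp10, against 19.6% of all tested genes (10.7% with LRP1 KO lower and 8.84% with LRP1 KO higher). The median difference over the 7 genes was -0.11, and over all tested genes it was -0.01. The shares outside Lrp1 rest on 6 genes and single out nothing about the family.

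**Figure D2:**
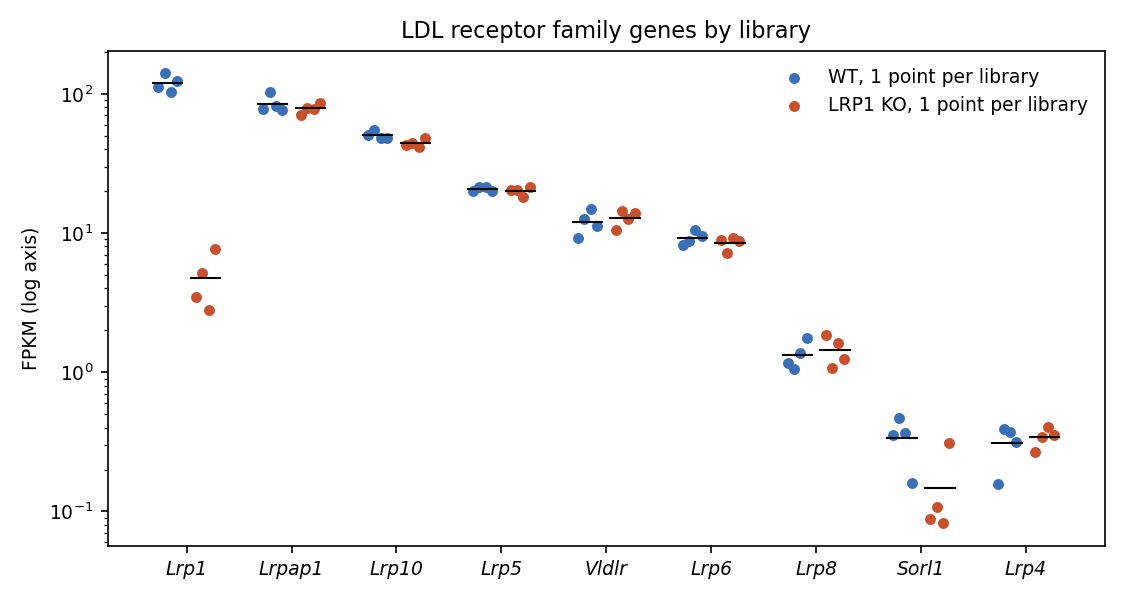
Levels of the 9 genes in FPKM on a log axis, 1 point per library and a bar at the group mean, for 4 WT (blue) and 4 LRP1 KO (red) libraries. The Lrp1 groups are far apart, the Lrp10 groups touch without overlap, and the points of the other genes overlap, with Sorl1 and Lrp4 below 1 FPKM in every library.

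Vldlr and Lrp8, the receptors for apoE and reelin that share the tail signal printed above, differed by less than the spread between libraries. Vldlr was at 9.20, 12.5, 14.8 and 11.2 FPKM in WT, against 10.5, 14.5, 12.6 and 13.9 FPKM in LRP1 KO. All 4 LRP1 KO values lay within the WT range. The means were 11.9 ± 2.36 and 12.9 ± 1.78 FPKM (SD, n = 4), and the difference was 0.11 (SE 0.14, 95% interval -0.20 to 0.43, limma adjusted p = 0.612). Lrp8, the less abundant of this pair, was at 1.16, 1.05, 1.38 and 1.76 FPKM in WT, against 1.85, 1.07, 1.61 and 1.24 FPKM in LRP1 KO. Here too the libraries of the groups were interleaved. Its means were 1.34 ± 0.314 and 1.44 ± 0.354 FPKM (SD, n = 4), and the difference was 0.06 (95% interval -0.24 to 0.36, limma adjusted p = 0.781). Both intervals span 0, and the absence of a call does not show equal levels here or in the genes that follow.

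Lrp5 and Lrp6, the Wnt co-receptors, were also not called. Lrp5 was at 19.9, 21.5, 21.3 and 20.1 FPKM in WT, against 20.3, 20.4, 18.2 and 21.2 FPKM in LRP1 KO, with LRP1 KO library 3 as the lowest of all. It varied least of the tested family, with a coefficient of variation of 5.16% over the 8 libraries, where the median of all tested genes was 11.8%. Its means were 20.7 ± 0.814 and 20.1 ± 1.28 FPKM (SD, n = 4), and the difference was -0.05 (95% interval -0.18 to 0.09, limma adjusted p = 0.634). Lrp6 was at 8.24, 8.71, 10.5 and 9.45 FPKM in WT, against 8.91, 7.16, 9.22 and 8.79 FPKM in LRP1 KO. Its groups overlapped, with 1 LRP1 KO library below the lowest WT library. The means of 9.24 ± 1.004 and 8.52 ± 0.922 FPKM (SD, n = 4) gave a difference of -0.11 (95% interval -0.32 to 0.11, limma adjusted p = 0.468). The ratio of Lrp5 to Lrp6 in FPKM ran from 2.02 to 2.47 in WT and from 1.98 to 2.85 in LRP1 KO.

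Lrp4, the receptor of agrin at the neuromuscular junction, was low in all libraries and did not pass the filter. It was at 0.157, 0.393, 0.372 and 0.315 FPKM in WT, against 0.265, 0.343, 0.403 and 0.355 FPKM in LRP1 KO. The groups overlapped, and the exact two-sided permutation test over 4 and 4 libraries gave p = 0.686.

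Lrp10 was the relative nearest to a call. It was at 50.9, 55.0, 48.1 and 47.9 FPKM in WT, against 42.7, 44.2, 41.6 and 47.8 FPKM in LRP1 KO. Each LRP1 KO library lay below each WT library, but LRP1 KO library 4 and WT library 4 nearly met. The means were 50.5 ± 3.29 and 44.0 ± 2.71 FPKM (SD, n = 4), so LRP1 KO was at 87.3% of WT. The difference was -0.19 (SE 0.065, 95% interval -0.34 to -0.05) with an unadjusted limma p of 0.0152 and an adjusted p of 0.0759, which missed the threshold. In the exact permutation test p was 0.0286, the smallest possible, as it is for each gene whose groups do not overlap, which held for 19.6% of the tested genes. Without LRP1 KO library 4 the difference was -0.23 (adjusted p = 0.0281) and Lrp10 was called, when the number of calls over all genes also rose from 1547 to 2959. Of all tested genes, 63.2% had a smaller absolute difference, the median of which was 0.14. With a marker score as a covariate Lrp10 was not called, and the difference was -0.37 (SE 0.16, adjusted p = 0.217) with the macrophage, -0.10 (SE 0.084, adjusted p = 0.742) with the endothelial and -0.13 (SE 0.076, adjusted p = 0.409) with the fibroblast score. Over all 18 alternatives its adjusted p ran from 0.0281 to 0.742.

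Sorl1, the sorting receptor, was low throughout and did not pass the filter. It was at 0.356, 0.472, 0.369 and 0.160 FPKM in WT, against 0.0876, 0.107, 0.0824 and 0.310 FPKM in LRP1 KO. LRP1 KO libraries 1 to 3 lay below the lowest WT library and library 4 lay inside the WT range. The LRP1 KO mean was 43.3% of the WT mean, and the exact two-sided permutation test over 4 and 4 libraries gave p = 0.0571. Without LRP1 KO library 4, chosen as an alternative after the values were seen, the mean was 0.0922 ± 0.0129 FPKM (SD, n = 3) or 27.2% of WT, and the groups did not overlap. The exact permutation p was then 0.0571, the smallest that 3 against 4 libraries allow. At these levels, far under 1 FPKM and with unknown depth, a difference of this kind could not be resolved further.

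Lrpap1, the chaperone, was abundant in both groups and was not called. It was at 77.7, 103, 82.2 and 77.0 FPKM in WT, against 70.9, 78.9, 78.1 and 86.1 FPKM in LRP1 KO. WT library 2 was the highest of all 8, and the remaining libraries of the groups were interleaved. The means were 85.0 ± 12.4 and 78.5 ± 6.19 FPKM (SD, n = 4), and LRP1 KO was at 92.4% of WT. The difference was -0.11 (95% interval -0.33 to 0.12, limma adjusted p = 0.480). In level the chaperone stood above 91.7% of the tested genes in WT and above 91.0% in LRP1 KO.

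**Figure D3:**
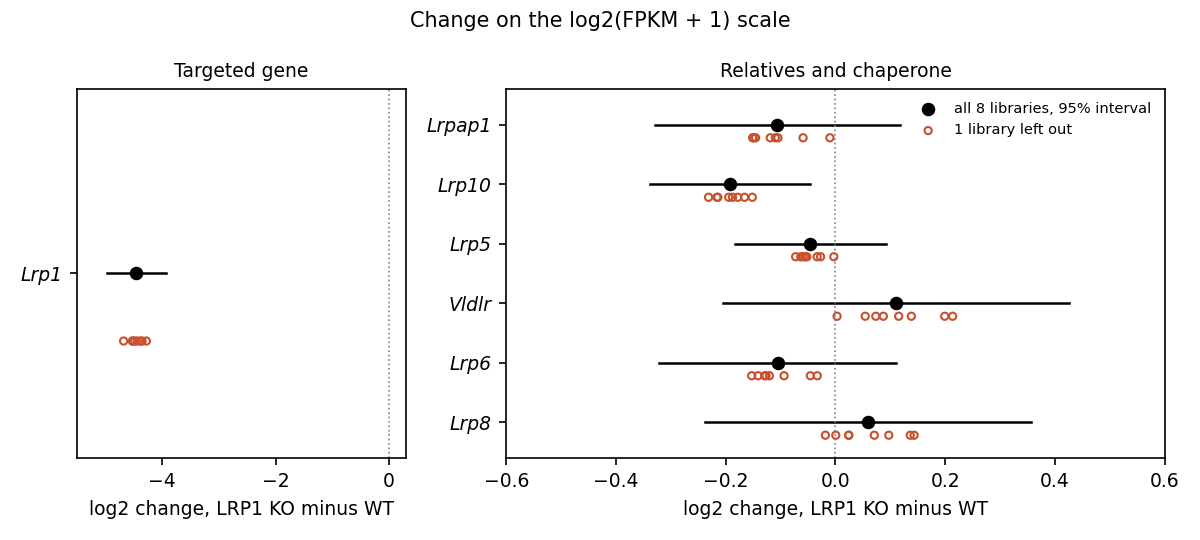
Difference between LRP1 KO and WT on the log2(FPKM + 1) scale for the 7 tested genes, with the estimate from all 8 libraries and its 95% interval (black) and the 8 estimates with 1 library left out (open circles); the Lrp1 panel has its own axis. The interval of Lrp10 (-0.34 to -0.05) is the only one of the relatives and the chaperone that leaves out 0, and the left-out estimates of Lrp8 fall on both sides of it.

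The order of the family by FPKM in WT was Lrp1, Lrpap1, Lrp10, Lrp5, Vldlr, Lrp6, Lrp8, Sorl1 and Lrp4. Neighbours in this order were apart in all libraries except for 3 pairs whose WT ranges met: Lrp1 with Lrpap1, Vldlr with Lrp6, and Sorl1 with Lrp4. Within each WT library Lrp1 was still above Lrpap1 and Vldlr above Lrp6, in 4 of 4 libraries. In LRP1 KO, Lrp1 moved from the first to the sixth place and Lrpap1 led in all 4 libraries, followed by Lrp10, Lrp5, Vldlr and Lrp6. Lrp8, Lrp4 and Sorl1 followed Lrp1.

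The summed level of the 8 receptors showed how much of the family was Lrp1. In WT, Lrp1 made up 51.6% to 58.5% of the summed receptor FPKM, and in LRP1 KO 3.22% to 7.62%. The 7 other receptors summed to 89.9 to 99.6 FPKM in WT and 83.7 to 93.6 FPKM in LRP1 KO, and these ranges overlapped. The family's summed transcript level thus dropped from 280 to 343 FPKM over the 9 genes in WT to 159 to 187 FPKM in LRP1 KO. Lrp10 became the most abundant receptor, with 47.2% to 48.5% of the receptor sum against 22.3% to 25.1% in WT, a shift in share that follows from the removal of Lrp1 since its own level was not higher. The ratio of Lrpap1 to Lrp1 was 0.620 to 0.796 in WT and 11.2 to 28.0 in LRP1 KO. Relative to the sum of the 7 other receptors, Lrpap1 was at 0.847 to 1.04 in WT and 0.839 to 0.933 in LRP1 KO. All of these are sums of transcript levels and say nothing of protein.

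**Figure D4:**
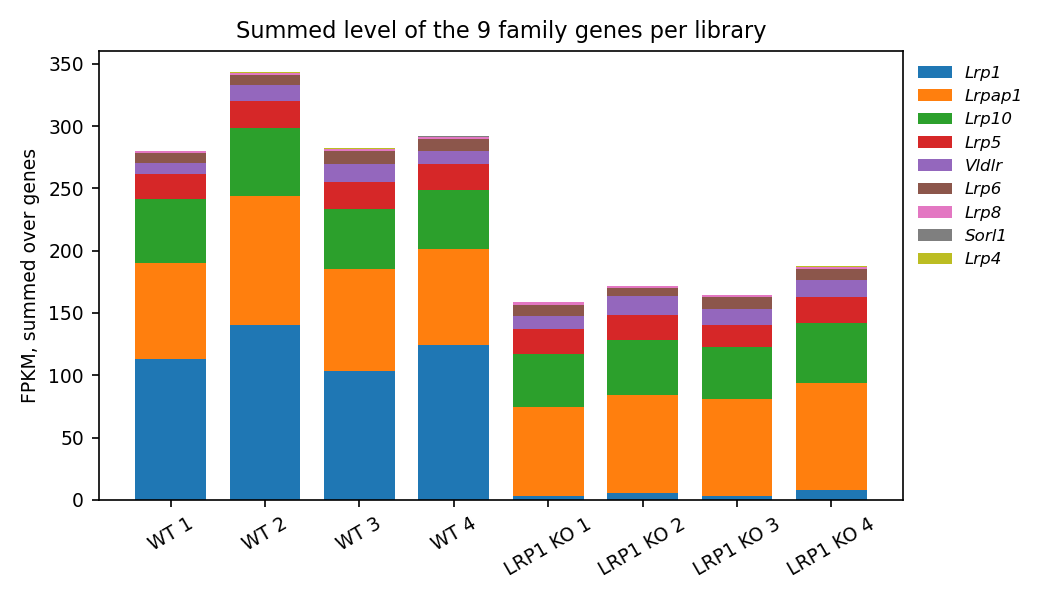
Stacked levels of the 9 genes in FPKM in each of the 8 libraries (4 WT, then 4 LRP1 KO; the axis starts at 0). The Lrp1 segment takes 103 to 140 FPKM in WT and 2.79 to 7.72 FPKM in LRP1 KO, and the Lrpap1 and Lrp10 segments make up most of what remains.

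Among 10 further receptors of the LDL receptor and sortilin families, 6 were tested and 2 were called, 1 in each direction (over all tested genes 6.27% rose and 7.31% fell), with a median difference of -0.24 against -0.01 over all tested genes. Lrp12, a receptor of uncertain ligand, was at 2.63, 3.17, 3.76 and 3.41 FPKM in WT, against 4.62, 4.70, 3.997 and 4.88 FPKM in LRP1 KO. All LRP1 KO libraries lay above WT, as for 8.84% of all tested genes, and the difference was 0.39 (SE 0.098, limma adjusted p = 0.0327). Sort1, which encodes sortilin, a Golgi-to-endosome sorting receptor, was at 16.3, 15.4, 18.5 and 18.6 FPKM in WT, against 13.6, 13.2, 12.1 and 15.4 FPKM in LRP1 KO. LRP1 KO library 4 lay just above WT library 2, and the difference was -0.32 (SE 0.089, limma adjusted p = 0.0442). Both calls were near the threshold, and both were lost without the filter on low values and with a block for the replicate number. With 1 library left out at a time, Lrp12 was called only without WT library 3 or LRP1 KO library 4 (2 of 8 fits, adjusted p 0.0344 to 0.0907 over the 8) and Sort1 only without LRP1 KO library 4 (1 of 8, adjusted p 0.0127 to 0.126). With the macrophage, endothelial and fibroblast scores as covariates the difference was -0.014, 0.46 and 0.48 for Lrp12 (adjusted p 0.973, 0.230 and 0.0785) and -0.59, -0.19 and -0.25 for Sort1 (adjusted p 0.157, 0.617 and 0.286).

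The other tested receptors of this group were not called. Lrp2 (megalin), the large endocytic receptor of absorptive epithelia, was at 7.64, 6.66, 6.42 and 9.73 FPKM in WT, against 5.81, 4.07, 6.10 and 4.12 FPKM in LRP1 KO. Its groups did not overlap, as for 10.7% of all tested genes with LRP1 KO lower, and the difference of -0.52 had a limma adjusted p of 0.0531. Lrp3 had means of 6.21 and 4.75 FPKM (difference -0.32, adjusted p = 0.165), Lrp11 of 4.98 and 5.54 FPKM (0.11, adjusted p = 0.567) and Ldlrad3 of 2.48 and 2.11 FPKM (-0.17, adjusted p = 0.390). Lrp1b, Sorcs1, Sorcs2 and Sorcs3 were too low to test.

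Genes that move these receptors through the cell or turn them over were then examined. Of 15 measured, 13 were tested, 2 fell and 0 rose, with a median difference of -0.0021. The background share of tested genes that fell was 7.31%, and of those that rose 6.27%. Mylip (IDOL), a ubiquitin ligase that marks receptors of this family, VLDLR and LRP8 among them, for degradation, was at 10.2, 10.7, 10.5 and 12.1 FPKM in WT, against 6.49, 7.84, 6.84 and 8.48 FPKM in LRP1 KO (-0.50, limma adjusted p = 0.0109). Gga2, a Golgi adaptor of sortilin-type receptors, was at 37.4, 39.7, 35.3 and 34.5 FPKM in WT, against 27.5, 27.9, 28.9 and 30.1 FPKM in LRP1 KO (-0.35, adjusted p = 0.0095). For both the groups did not overlap, as for 10.7% of all tested genes with LRP1 KO lower. Both calls were kept in 8 of 8 fits with 1 library left out. With the macrophage, endothelial and fibroblast scores as covariates the difference was -0.36, -0.30 and -0.31 for Gga2 (adjusted p 0.222, 0.194 and 0.0732) and -0.84, -0.31 and -0.37 for Mylip (adjusted p 0.0955, 0.234 and 0.0785). With the macrophage score the SE was 0.16 for Gga2 and 0.20 for Mylip, against 0.060 and 0.090 without a score, and a lost call does not by itself show a smaller change.

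The genes described next were not called. Mesdc2, the chaperone that LRP5 and LRP6 need to fold, had means of 56.8 (WT) and 59.1 FPKM (LRP1 KO) (0.06, adjusted p = 0.579). Dab2, an adaptor that binds NPxY tails, had means of 151 and 142 FPKM. Snx17, a sorting nexin that returns LRP1 to the surface, had means of 56.8 and 53.9 FPKM. The retromer subunits Vps26a, Vps29 and Vps35 had WT means of 58.2, 93.8 and 84.7 FPKM and LRP1 KO means of 56.7, 103 and 93.7 FPKM, none of them called.

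Of 24 ligands and inhibitors of the family measured, 14 were tested, 2 rose and 3 fell, with a median difference of -0.067, where 6.27% of all tested genes rose and 7.31% fell. Ctgf, a matrix-associated ligand of LRP1, was at 236, 264, 359 and 334 FPKM in WT, against 471, 458, 509 and 355 FPKM in LRP1 KO (0.59, limma adjusted p = 0.0335), where library 4 lay inside the WT range. Serpine2, which encodes protease nexin-1, an inhibitor of serine proteases, was at 15.8, 17.0, 21.3 and 14.6 FPKM in WT, against 23.8, 23.9, 23.6 and 25.6 FPKM in LRP1 KO (0.49, limma adjusted p = 0.0190). Its groups did not overlap, as for 8.84% of all tested genes with LRP1 KO higher. Lpl, lipoprotein lipase, was at 167, 188, 239 and 238 FPKM in WT, against 100, 106, 102 and 173 FPKM in LRP1 KO (-0.81, adjusted p = 0.0261). Mdk, which encodes the growth factor midkine, was at 64.9, 67.1, 48.5 and 47.4 FPKM in WT, against 27.4, 31.5, 24.7 and 47.4 FPKM in LRP1 KO (-0.81, adjusted p = 0.0297). In Ctgf, Lpl and Mdk, LRP1 KO library 4 was the one nearest to WT. With 1 library left out at a time, Serpine2 was called in 4 of 8 fits, those without WT library 1, 3 or 4 or LRP1 KO library 4. Ctgf and Mdk were called in 3, those without WT library 3 or 4 or LRP1 KO library 4, and Lpl in 2, those without WT library 1 or LRP1 KO library 4. Over the 8 fits the adjusted p ran from 0.0041 to 0.0579 for Serpine2, from 0.00779 to 0.0980 for Ctgf, from 0.00202 to 0.0904 for Mdk and from 0.00122 to 0.0770 for Lpl. Without the filter on low values, Ctgf, Lpl and Mdk were not called (limma adjusted p 0.0697, 0.0569 and 0.0634). A block for the replicate number also ended the calls of Ctgf and Mdk (limma adjusted p 0.0547 for each). All 5 calls were lost with the macrophage or the endothelial score as a covariate. With the macrophage score the differences of Lpl, Mdk, Ctgf and Serpine2 were -1.51, -1.45, 0.76 and 0.26, and with the endothelial score -0.36, -0.38, 0.37 and 0.52. Pzp and Ndp were listed at 0 in all libraries.

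**Figure D5:**
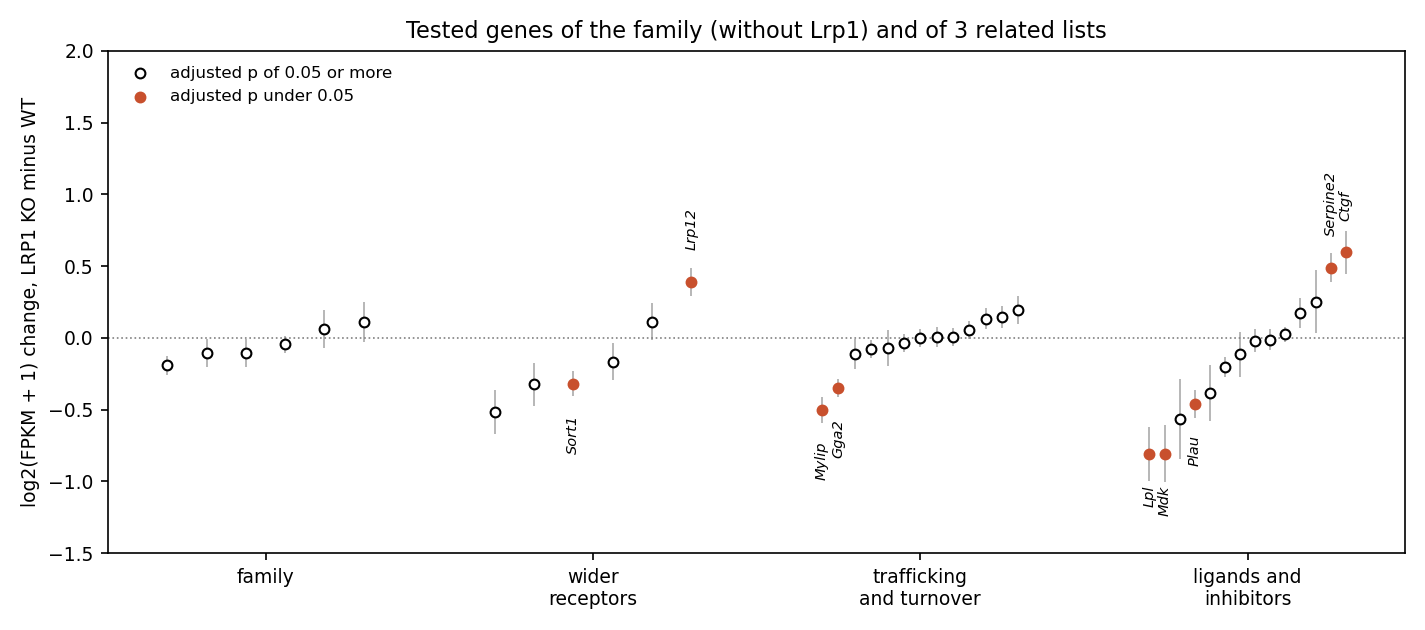
Difference between LRP1 KO and WT on the log2(FPKM + 1) scale with its SE for each tested gene of the family other than Lrp1 and of the wider receptor, trafficking and ligand lists, sorted within a list. Filled points were called (adjusted p under 0.05) and are named: 0 of 6 in the family, 2 of 6, 2 of 13 and 5 of 14 in the lists, where 13.6% of all tested genes were called.

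The tested genes whose pattern over the 8 libraries was most like that of Lrp1 were Rhobtb1 (Pearson r = 0.991), Mapk3 (0.990) and Gatsl2 (0.988). Rhobtb1 ran from 8.10 to 9.03 FPKM in WT and from 4.68 to 5.15 FPKM in LRP1 KO, and in all 3 the libraries of the groups did not overlap. Mapk3, which encodes the kinase ERK1, ran from 116 to 123 FPKM in WT and from 94.9 to 101 FPKM in LRP1 KO, and Gatsl2 from 6.53 to 6.99 and from 3.96 to 5.01 FPKM. The split between the groups enters these correlations, and how much of them it makes up was not tested. Of the tested genes, 437 had an r above 0.9. No member of the family other than Lrp1 was called, so no such search was made for another.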

How the data were processed

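The sample titles gave the groups and replicate numbers, and the values came from the table the authors deposited. The submitters' processing notes name TopHat2, Cufflinks and mm10, while the study's methods describe trimGalore, STAR, featureCounts and edgeR with GENCODE genes, which would give counts. The deposited table holds fractional values. The 8 columns share their highest value, sum to 503571 to 504112, and differ by a median of 0.577% between their sorted values. The deposited values were therefore taken as FPKM, quantile normalized by the authors; the unit is inferred from the values and from Cufflinks. This step hides depth and any shift common to most genes.

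From these, log2(FPKM + 1) was fitted with limma 3.58.1 (R 4.3.3) on the 2 groups, with a variance trend, for the 11389 of 22520 genes with at least 1 FPKM in at least 4 libraries. P-values were adjusted by the Benjamini-Hochberg method over these genes, and a gene was called at an adjusted p under 0.05. For single genes an exact permutation test, two-sided, was run. Fold changes on this scale understate changes of low genes. Counting intervals could not be given because depth is unknown.

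The family members and the lists were chosen with earlier results of these data known. Named genes are the 9 members, all wider receptors tested, and up to 4 called genes with the largest change in each further list. The adaptors, the retromer subunits and Mesdc2 were named for their roles. The lists held 12 sets in all, written from general knowledge, and some of their genes are not reported here and are left out of the list counts. In them Ctgf and Mesdc2 stand under their older symbols, and Adgre1 was not matched. Dab2 has 2 identifiers, of which ENSMUSG00000022150 was used. Positions and transcripts are from GENCODE M21 (GRCm38). A total of 18 alternatives was fitted, among them 3 marker scores as covariates.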

Additional observations from a re-analysis of the deposited data

Results flagged for a closer look

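Sorl1 in LRP1 KO library 4 stood apart from its group. Its level there was 0.310 FPKM, while the other 3 LRP1 KO libraries lay between 0.0824 and 0.107 FPKM, and the gap to the nearest of them took up most of the group's range. In WT, Sorl1 ran from 0.160 to 0.472 FPKM. The same library had the highest remaining Lrp1 level of its group (7.72 FPKM) and an endothelial marker sum of 209 FPKM, and the part of either in the Sorl1 value was not tested. The 9 genes gave 18 groups that were examined in this way, of which chance alone would single out about 1 in 20.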

How the results depend on the processing

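The number of the 9 family genes called was 1 to 2 with 1 library left out, the second being Lrp10 without LRP1 KO library 4, and 1 under all other alternatives. Lrp1 was called in all 18, at -5.68 to -3.87 (adjusted p 9.18e-06 to 0.00245). Signs turned for Lrp12 and for genes that were not called, mainly with a marker score as a covariate. With the endothelial score the difference was 0.0083 for Lrp5, -0.095 for Lrp8, 0.018 for Lrpap1, 0.026 for Ldlrad3 and -0.19 for Lrp11. With the fibroblast score it was 0.0026 for Lrp5, -0.082 for Lrp8, 0.029 for Lrpap1, 0.0095 for Ldlrad3 and -0.056 for Lrp11. With the macrophage score it was 0.050 for Lrp6, -0.48 for Vldlr, -0.014 for Lrp12 and 0.23 for Lrp2. With 1 library left out Lrp8 ran from -0.018 to 0.14, below 0 only without LRP1 KO library 1. Lrp4, which was not tested, ran from -0.020 to 0.069, below 0 only without WT library 1. These scores move with the groups: the median SE was 0.0880 without a score and 0.217 with the macrophage score, with 10 calls over all genes, against 1547 without a score, 164 with the endothelial and 287 with the fibroblast score.

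Of 2 wider receptors called, 0 were called without the filter on low values, with the replicate block and with each of the 3 scores, 1 with rescaled libraries, and 0 to 2 with 1 library left out. Of 2 trafficking genes, 0 were called with each score and 2 to 3 with 1 library left out. Of 5 ligands, 2 were called without the filter, 3 with the replicate block, 0 with the macrophage or endothelial score, 1 with the fibroblast score, and 0 to 7 with 1 library left out. Over all genes, leaving out 1 library gave 433 to 989 calls, and 2959 without LRP1 KO library 4. The cause was not tested.

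Same-numbered libraries were checked for pairing. Their deviations correlated at 0.158, 0.141, 0.340 and -0.312, so not every pair moved together, and the labels name no shared source; the numbers were not taken as pairs. With the replicate block Lrp1 stayed at -4.45 (adjusted p = 0.000749), 1 family gene was called, and calls over all genes went from 1547 to 1013. Adjusted p with the block was 0.0684 for Lrp12, 0.0592 for Sort1 and 0.0547 for Ctgf and Mdk, which were then not called. Unknown depth limits all values under 1 FPKM, as for Sorl1 and Lrp4.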
